A study of Mus musculus with 10 samples.

Results

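The cytosolic ribosomal protein genes encode the proteins of the ribosome that translates nuclear mRNAs. They were the rows of the count table whose identifier is paired with a protein-coding mouse gene and a ribosomal protein symbol, without pseudogenes. The symbol was Rplp0, Rplp1, Rplp2 or Rpsa, or Rpl or Rps with a number. After that number a single a, l, x or y, with or without further digits, could follow. This rule found 83 of 51467 genes listed, 32 of the small and 51 of the large subunit. Expression was measured in 10 libraries of mouse embryonic stem cells with QuantSeq, a method that reads mRNAs from their 3′ ends only. WT was the V6.5 line (3 libraries). DGCR8 KO cells (3 libraries) lack the partner of Drosha in the first step of miRNA processing. DDX6 KO cells (4 libraries, being 2 from each of 2 clones derived from V6.5 with CRISPR-Cas9) lack an RNA helicase that acts in translational repression and mRNA decay. The DGCR8 KO line was 1 line made before this study, and a clone number is given for DDX6 KO only. All groups were grown in serum with LIF and 2i, a pair of kinase inhibitors that keeps the cells in the naive state, and no other treatment is given. Nothing states that the libraries of a group came from separate cultures, so p-values measure the spread between these libraries, which may be technical.

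A ribosome holds a single copy of nearly every ribosomal protein. The small subunit decodes the mRNA while the large subunit forms the peptide bond. The mRNAs of most of these genes start with a run of pyrimidines, the 5′ terminal oligopyrimidine (TOP) motif, through which LARP1 and mTOR signalling set their translation and stability together. Stem cells that divide quickly make much ribosomal protein mRNA, and embryonic stem cells also carry the ESCC miRNAs, a family that needs DGCR8 to be made.

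The start of a transcript carries the TOP motif, so the 30 bases around the annotated start (5 before it and 25 from it on) are shown for 4 members that have the motif and were lower in DDX6 KO than in WT, and for the 3 members with the largest called changes against WT. The first 4 were picked after their values were seen. Sequences are from RefSeq (GRCm38.p6), and capitals mark the pyrimidine run that begins at the annotated first base. The motif was taken as C at that base followed by C or T without a break for at least 5 bases in all, on the transcript strand. A member had the motif if any of its annotated starts held it. Rps21 has another annotated start (chr2:180257444-180257473), not shown, which does not hold it.
Rps21, chr2:180257374-180257403, plus strand: ccgccCTCCTgcccaatagtgctgcggagg
Rpl38, chr11:114668575-114668604, plus strand: tcgttCTTTCCCCgttctcttcggttctca
Rplp2, chr7:141447646-141447675, plus strand: tcttcCTTTCgccgccggacgccgccgagg
Rps10, chr17:27635220-27635249, minus strand: cgcccCTTCCTTTCCagcctccgcctcgga
Rpl39l, chr16:10170223-10170252, plus strand: tttccggatttccggtggtcgccattcttt
Rpl10l, chr12:66284377-66284406, minus strand: attttgcggctggcggtgggcacgcacggc
Rpl9, chr5:65391407-65391436, minus strand: ctgacggattacaagaacgtgatgacgaaa
RefSeq gave a start for 63 of the 83 members. Of their 75 promoters 13 held the motif at the start (17.3%), against 823 of 32851 promoters in the table (2.51%). A missing match says only that these letters are not at the annotated base, since a start annotated a few bases off moves the run out of place. Rps21, a small subunit protein, was at 858, 797 and 879.9 CPM in WT, 806, 799 and 752 CPM in DGCR8 KO and 553, 552, 521 and 587 CPM in DDX6 KO. WT and DGCR8 KO overlapped, and DDX6 KO lay below both (log2 fold change -0.10 ± 0.09 SE, adjusted p = 0.366 and -0.61 ± 0.08 SE, adjusted p = 2.16e-05). Of the 11 members tested that had the motif, 9 were lower in DDX6 KO than in WT (median log2 fold change -0.61) and 4 were lower in DGCR8 KO (median -0.32), at an adjusted p under 0.05 in limma across all genes. Of all genes tested, 16.6% were lower in DDX6 KO and 16.5% in DGCR8 KO by that rule. Of the 49 tested members matched without it, 31 were lower in DDX6 KO (median -0.53) and 20 in DGCR8 KO (median -0.43).

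The ESCC miRNAs bind through their seed, and 3 of them are shown because DGCR8 is needed to make them. Capitals mark the seed, bases 2 to 8, which is the same in each.
mmu-miR-291a-3p: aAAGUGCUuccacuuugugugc
mmu-miR-294-3p: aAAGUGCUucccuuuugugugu
mmu-miR-295-3p: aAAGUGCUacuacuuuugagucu
A match to the seed (AGCACTT or GCACTTA, transcript strand) was in the 3′ UTR of 7 of the 83 members (8.43%), against 2180 of 10900 tested coding genes (20.0%). The 3′ UTRs of the members are short, with a median of 89 bases against 1062.5 for the tested coding genes. The members with a match included Rpl11, Rpl23, Rpl37, Rps15a, Rps20 and Rpsa. None of the 7 was higher in DGCR8 KO than in WT by the test, and their log2 fold changes ran from -0.48 to -0.11, with 4 of the 7 lower in DGCR8 KO without overlap between the libraries (all genes, 21.1%).

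Libraries held 2131156 to 4745083 gene counts, and 3 counts, taken as the floor, came to 0.632 to 1.41 CPM, the unit used here for a count relative to its library's total. Dgcr8 was at 50.4, 52.1 and 65.8 CPM in WT, 10.1, 9.16 and 15.5 CPM in DGCR8 KO and 47.2, 35.1, 52.1 and 51.2 CPM in DDX6 KO. Ddx6 was at 505, 525 and 586 CPM in WT, 521, 486 and 488 CPM in DGCR8 KO and 149, 135, 39.0 and 25.7 CPM in DDX6 KO, lower in clone 2 than in clone 1. The study's methods give an insertion of 1 base in one DDX6 KO clone and a large deletion in the other. The place of the deletion relative to the counted 3′ end was not examined, so the Ddx6 level is not taken as a check of the edit. All 6 embryonic stem cell markers examined had counts in every group (summed level 2373 to 3273 CPM over the libraries). The 8 fibroblast markers summed to 4.60 to 11.5 CPM, with Dcn and Postn at 0 in WT and DDX6 KO. The 6 markers of primitive endoderm, an early lineage beside the stem cells, summed to 7.17 to 10.8 CPM in WT, 3.06 to 4.60 CPM in DGCR8 KO and 17.5 to 25.3 CPM in DDX6 KO, with Sox7 at 0 in WT and DGCR8 KO. Of these 6 only Dab2 passed the filter on low counts, and each of the others held at most 9 counts per library. Pdgfra held 7, 9 and 1 counts in DGCR8 KO against 0, 1 and 3 in WT. The sums thus do not show that these markers moved together. The part of the fibroblast and endoderm markers in the results was not tested. In bulk RNA, fewer cells of a type and less RNA per cell cannot be told apart.

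Ribosomal protein genes held a smaller share of the counts in both knockouts than in WT. The summed share over the 83 members was 2.82, 2.72 and 2.83% in the WT libraries. It was 2.26, 2.07 and 2.27% in DGCR8 KO and 1.78, 2.06, 1.82 and 2.14% in DDX6 KO, where the first pair is clone 1 and the second is clone 2. Every knockout library lay below every WT library, while the ranges of the knockouts overlapped. The group values were 2.79 ± 0.0597%, 2.20 ± 0.115% and 1.95 ± 0.176% (SD, n = 3, 3 and 4). The small subunit held 1.48 ± 0.0165% in WT, 1.20 ± 0.0797% in DGCR8 KO and 0.998 ± 0.0817% in DDX6 KO. The large subunit held 1.31 ± 0.0438%, 1.001 ± 0.0357% and 0.952 ± 0.0950%. For the small subunit the knockouts did not overlap, DDX6 KO being the lower, whereas for the large subunit they did. Within DDX6 KO the libraries split by replicate number rather than by clone, with replicate 2 above replicate 1 in both clones.

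**Figure D1:**
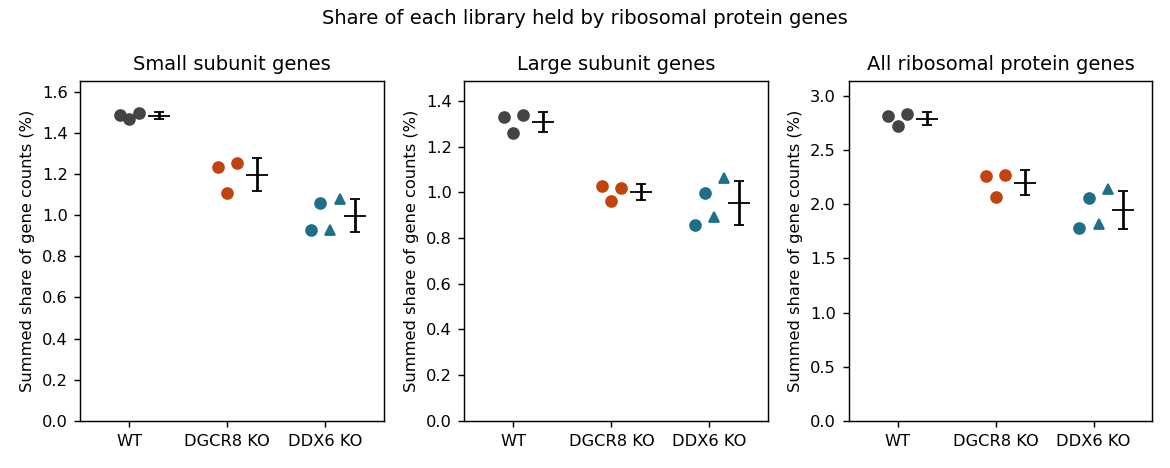
Summed share of gene counts (percent, axis from 0) held by ribosomal protein genes of the small subunit, of the large subunit and of both, with 1 point per library (triangles are DDX6 KO clone 2) and bars for the mean and SD. All 7 knockout libraries sit below the 3 WT libraries in each panel, and over both subunits WT lies between 2.72% and 2.83%.

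The deposited counts were tested across all genes with limma. Of the 83 members, 80 passed the filter on low counts, 31 of the small and 49 of the large subunit. Of all 11683 genes tested, 16.5% were lower and 19.9% higher in DGCR8 KO than in WT at an adjusted p under 0.05. In DDX6 KO 16.6% were lower and 17.9% higher than in WT. The median log2 fold change over all genes was 0.004 in DGCR8 KO and 0.024 in DDX6 KO. Both comparisons use the same WT libraries, so their values stand side by side and are not independent.

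In DGCR8 KO, 33 of the 80 tested members were lower than in WT (41.2%) and none was higher at an adjusted p under 0.05 (limma); at an unadjusted p under 0.05, 43 passed in either direction (53.8%, against 45.5% of all genes). DESeq2 and edgeR also called none higher. The estimate was below 0 for 75 of the 80. The median log2 fold change was -0.40, with a middle range of -0.55 to -0.22. The libraries did not overlap for 43 members, lower in DGCR8 KO, and for 1 member, Rpl5, higher (all genes, 21.1% and 23.7%). Past the threshold, a log2 fold change below -1 was found for Rpl39l, Rpl9 and Rpl36a (all genes, 5.81%), and one above 1 for no member (all genes, 8.93%).

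In DDX6 KO, 55 of the 80 tested members were lower than in WT (68.8%) and 1, Rpl10l, was higher. The median was -0.59, with a middle range of -0.77 to -0.35, and 70 of the 80 estimates were below 0. The libraries did not overlap for 56 members, lower in DDX6 KO, and for Rpl10l, higher (all genes, 19.4% and 20.5%). Past the threshold, the log2 fold change was below -1 for Rpl39l and Rpl23a and above 1 for Rpl10l (all genes, 3.66% and 7.55%).

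Level and scaling bear on these counts. Among the 2441 genes whose mean was at least 100 CPM, 33.3% were lower and 15.3% higher in DDX6 KO, with a median of -0.14. Of the tested members 40 had that level, and of these 36 were lower in DDX6 KO (median -0.67) and 22 in DGCR8 KO (median -0.33), where 24.9% of such genes were lower and 22.1% higher. Scaling to the ERCC spike-ins, RNAs added in a known amount, left 2 members (2.5%) lower in DGCR8 KO and 1 (1.25%) in DDX6 KO. With it, 486 of all genes (4.16%) were lower in DGCR8 KO and 215 (1.84%) in DDX6 KO. The share of members called lower was thus no larger than that of all genes. The spike-in counts ran from 1.11% to 2.42% of the gene counts over the libraries, with a range of 1.22% to 2.36% within WT. The members' medians under that scaling were -0.56 and -0.52, while the median of all genes shifted to -0.15 and 0.07. Relative to the median of all genes, the members lay at -0.41 and -0.59 with spike-ins, at -0.40 and -0.62 with total counts and at -0.40 and -0.61 with the scaling used throughout (TMM).

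The medians of the subunits lay close together. In DGCR8 KO the median log2 fold change was -0.41 for the small and -0.39 for the large subunit, with 11 of 31 and 22 of 49 tested members lower. In DDX6 KO the medians were -0.59 and -0.57, with 23 of 31 and 32 of 49 lower. Of all genes tested, 16.5% were lower in DGCR8 KO and 16.6% in DDX6 KO. Values beyond 1 in size with an adjusted p under 0.05 occurred in the large subunit only, for 6 members over the 3 comparisons, and small subunit estimates ran from -0.90 to -0.10 in DGCR8 KO and from -0.97 to 0.15 in DDX6 KO. In both knockouts 26 members were lower than in WT, 8 of the small and 18 of the large subunit, a count that rests on shared WT libraries (all genes, 6.18%). A further 29 were lower in DDX6 KO alone and 7 in DGCR8 KO alone by the threshold (all genes, 10.5% and 10.3%), which does not show that the knockouts differ for them.

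**Figure D2:**
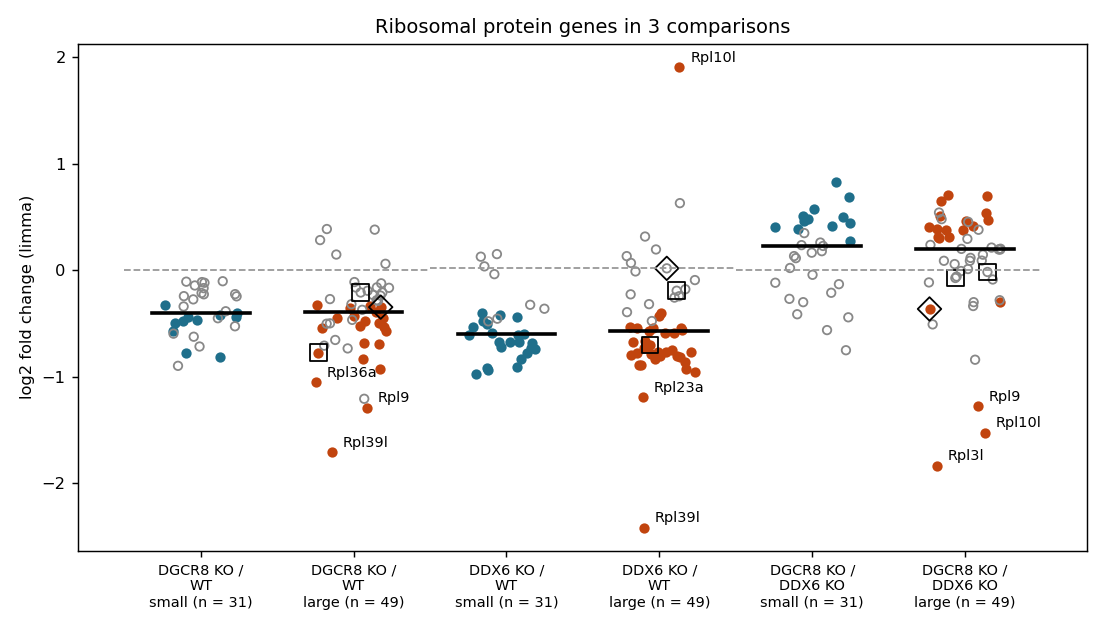
Log2 fold change of each of the 80 tested ribosomal protein genes in 3 comparisons, by subunit. Filled points have an adjusted p under 0.05, diamonds mark chromosome 6 and squares chromosome 8, thick bars are the medians of the subunits and dashed lines the medians of all genes. Both subunit medians lie below 0 in each comparison with WT (-0.41 and -0.39 in DGCR8 KO, -0.59 and -0.57 in DDX6 KO).

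Rpl39l, a copy of Rpl39 best known from male germ cells (ENSMUSG00000039209.12, chr16:10170226-10174911, mm10), was the member that fell most in both knockouts. It was at 222, 224 and 274 CPM in WT, 84.2, 65.8 and 70.9 CPM in DGCR8 KO and 51.3, 40.3, 49.6 and 40.3 CPM in DDX6 KO. All libraries of a knockout lay below all WT libraries, and all 4 DDX6 KO libraries lay below the 3 DGCR8 KO libraries. The log2 fold change was -1.71 ± 0.13 (SE, adjusted p = 3.53e-08) in DGCR8 KO and -2.42 ± 0.13 (SE, adjusted p = 1.61e-09) in DDX6 KO, and DGCR8 KO was higher than DDX6 KO by 0.71 ± 0.15 (SE, adjusted p = 7.74e-04). Rpl39 itself, which lines the exit tunnel of the ribosome, was at 104, 112 and 123 CPM in WT, 73.5, 98.4 and 79.8 CPM in DGCR8 KO and 55.3, 81.4, 76.3 and 104 CPM in DDX6 KO. The DGCR8 KO libraries lay below WT, and 1 DDX6 KO library, clone 2 replicate 2, lay within the WT range. Its log2 fold change was -0.45 ± 0.17 (SE, adjusted p = 0.0497) in DGCR8 KO and -0.54 ± 0.16 (SE, adjusted p = 0.0150) in DDX6 KO. In DGCR8 KO the call was lost without any of 7 libraries (adjusted p 0.0515 to 0.191), being WT replicates 1 to 3, DGCR8 KO replicates 1 and 3, and DDX6 KO clone 1 replicate 2 and clone 2 replicate 1. It was also lost with edgeR (0.0615), limma-trend (0.0638) and no filter (0.0565). In DDX6 KO it was lost with total counts (0.0517), with clone 2 alone (0.165), and without WT replicate 3 (adjusted p = 0.0817) or clone 1 replicate 1 (0.0576).

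Rpl10l, a copy of Rpl10 without introns that replaces it in spermatocytes, was the member that rose in DDX6 KO (ENSMUSG00000060499.7, chr12:66283379-66284401). It was at 100.3, 96.4 and 93.6 CPM in WT, 165, 88.9 and 134 CPM in DGCR8 KO and 390.4, 425, 341 and 308 CPM in DDX6 KO. The DDX6 KO libraries lay above all others, while of the 3 DGCR8 KO libraries 1 lay below the WT range and the others above it. The log2 fold change was 1.91 ± 0.16 (SE, adjusted p = 1.71e-07) in DDX6 KO and 0.38 ± 0.18 (SE, adjusted p = 0.113) in DGCR8 KO. DGCR8 KO was lower than DDX6 KO (-1.53 ± 0.16 SE, adjusted p = 5.20e-07). No 50-base stretch in the last 300 bases of its transcript was found in another gene. For Rpl10, by contrast, every such stretch was shared with other genes, and its counts, 5 to 20 per library, were too few to follow (log2 fold change -0.71 and 0.13, adjusted p 0.295 and 0.832).

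Rpl9, a large subunit protein near the site where translation factors bind (ENSMUSG00000047215.14, chr5:65388364-65391444), was lower in DGCR8 KO and did not pass in DDX6 KO. It was at 68.2, 49.4 and 48.2 CPM in WT, 21.4, 23.1 and 20.4 CPM in DGCR8 KO and 49.8, 65.4, 41.2 and 57.1 CPM in DDX6 KO. The DGCR8 KO libraries lay below all 7 others. The log2 fold change was -1.29 ± 0.21 (SE, adjusted p = 8.65e-05) in DGCR8 KO, -0.01 ± 0.16 (SE, adjusted p = 0.964) in DDX6 KO and -1.28 ± 0.20 (SE, adjusted p = 4.61e-05) between the knockouts. Of the 50-base stretches at its end, 66.5% are also found in other genes, so that its assignment is uncertain.

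Other members are copies of ribosomal proteins. Of 7 pairs, 3 of the original genes (42.9%) were lower in DGCR8 KO and 4 (57.1%) in DDX6 KO. Of the copies (Rps4l included), 3 (42.9%) were lower and 1 higher in DGCR8 KO. In DDX6 KO 4 copies (57.1%) were lower and 1 higher. Of all genes tested, 16.5% were lower and 19.9% higher in DGCR8 KO, and 16.6% and 17.9% in DDX6 KO. Rps27l, a p53 target and copy of Rps27, was at 363, 423 and 349 CPM in WT, 191, 230.1 and 223 CPM in DGCR8 KO and 236, 245, 227 and 283 CPM in DDX6 KO, without overlap between WT and either knockout. Its log2 fold change was -0.82 ± 0.12 (SE, adjusted p = 2.61e-05) in DGCR8 KO and -0.60 ± 0.11 (SE, adjusted p = 3.02e-04) in DDX6 KO, while Rps27, whose end is fully shared with other genes, held only 4 to 23 counts per library and did not pass in any comparison. Rpl7l1, a copy of Rpl7 known from ribosome assembly, was at 276, 298 and 335 CPM in WT, 193, 208 and 239 CPM in DGCR8 KO and 251, 248, 268 and 273 CPM in DDX6 KO, with both knockouts below WT and DGCR8 KO the lower. It was lower in DGCR8 KO (-0.52 ± 0.11 SE, adjusted p = 0.00111) and did not pass in DDX6 KO (-0.23 ± 0.10 SE, adjusted p = 0.0898), and DGCR8 KO was lower than DDX6 KO (-0.30 ± 0.10 SE, adjusted p = 0.0282). That last call was lost without DGCR8 KO replicate 1 (adjusted p = 0.138), DGCR8 KO replicate 2 (0.0597) or DDX6 KO clone 2 replicate 2 (0.0626). It was also lost with DDX6 KO clone 1 alone (0.163). Rpl7 was at 67.6 to 75.6 CPM in WT, 43.5 to 54.3 CPM in DGCR8 KO and 35.9 to 54.0 CPM in DDX6 KO, with log2 fold changes of -0.54 ± 0.15 (SE, adjusted p = 0.0108) and -0.74 ± 0.15 (SE, adjusted p = 8.29e-04), the first lost without DGCR8 KO replicate 1 (adjusted p = 0.0644). Rpl22, which binds RNA and is not essential, was at 1269 to 1304 CPM in WT, 932 to 1007 CPM in DGCR8 KO and 755 to 987 CPM in DDX6 KO (log2 fold change -0.43 ± 0.09 SE, adjusted p = 0.00170 and -0.57 ± 0.09 SE, adjusted p = 9.06e-05). Its copy Rpl22l1 was at 160.3 to 220.1 CPM in WT, 149 to 207 CPM in DGCR8 KO and 109.5 to 135 CPM in DDX6 KO (-0.11 ± 0.14 SE, adjusted p = 0.574 and -0.53 ± 0.14 SE, adjusted p = 0.00590). Rpl3, of the peptidyl transferase centre, was at 62.7 to 76.9 CPM in WT, 56.3 to 59.9 CPM in DGCR8 KO and 30.0 to 51.5 CPM in DDX6 KO (-0.28 ± 0.17 SE, adjusted p = 0.195 and -0.82 ± 0.16 SE, adjusted p = 8.23e-04). Its muscle copy Rpl3l had 1 to 19 counts per library. The difference between the knockouts (-1.84 ± 0.63 SE, adjusted p = 0.0232) rests on these few counts. That call was lost without DGCR8 KO replicate 1 (adjusted p = 0.0554) or 2 (0.116) and with DDX6 KO clone 1 alone (0.185). Rps4x, of the small subunit, was at 10.5 to 24.2 CPM in WT, 6.52 to 21.7 CPM in DGCR8 KO and 11.1 to 19.6 CPM in DDX6 KO and did not pass (-0.45 ± 0.38 SE, adjusted p = 0.370 and -0.04 ± 0.32 SE, adjusted p = 0.943). Its copy Rps4l is annotated as a transcribed pseudogene of chromosome 6 and so is no member. Rps4l was at 927 to 1146 CPM in WT, 1305 to 1421 CPM in DGCR8 KO and 690.1 to 981 CPM in DDX6 KO, higher in DGCR8 KO (0.42 ± 0.11 SE, adjusted p = 0.00627) and lower in DDX6 KO (-0.33 ± 0.11 SE, adjusted p = 0.0212). The split of reads between such near-identical sequences is uncertain. Of the ends of Rpl7, Rpl3, Rpl22l1 and Rps4x, 74.1%, 76.5%, 63.3% and 62.2% are shared with other genes, so their assignment is uncertain too.

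**Figure D3:**
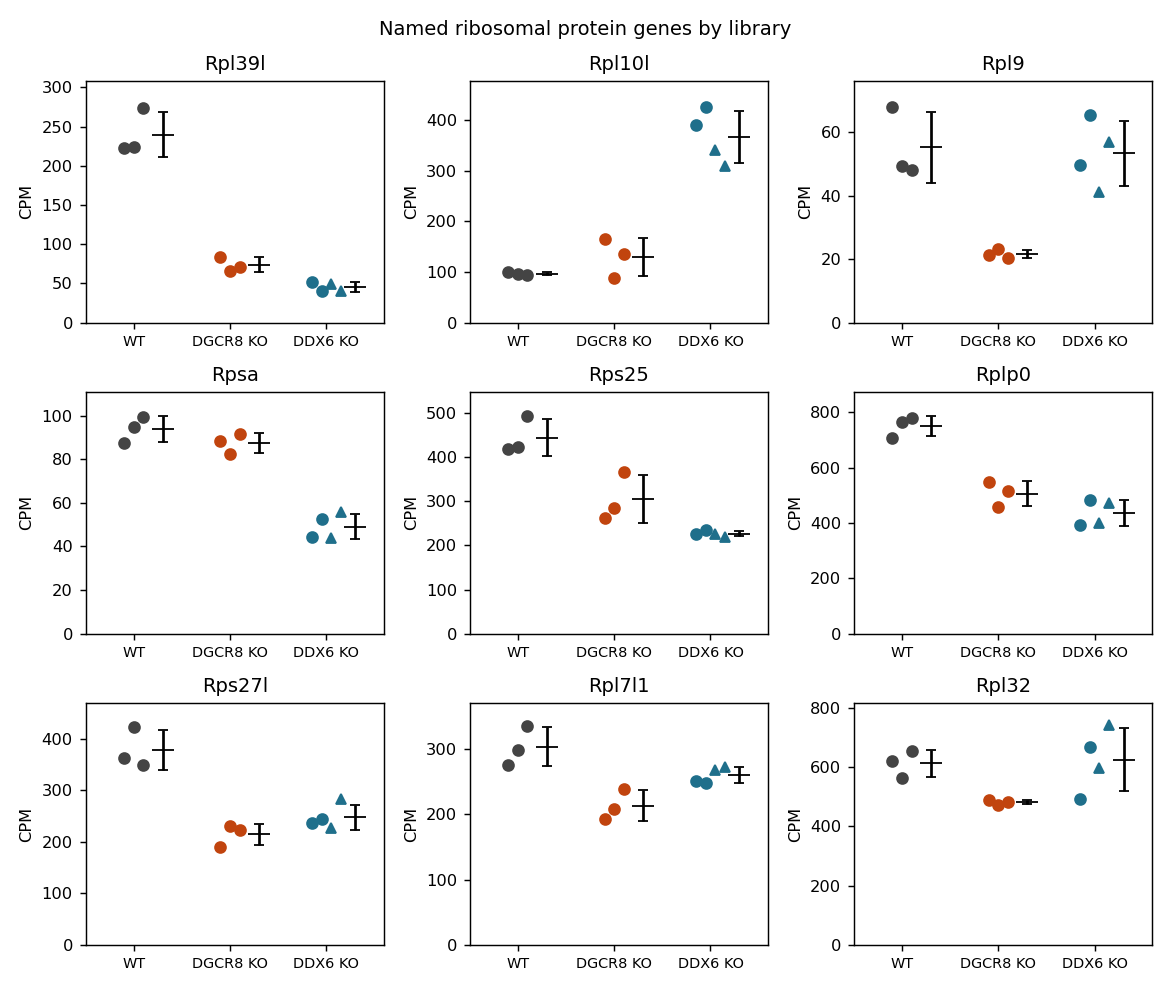
CPM (axis from 0) of 9 named ribosomal protein genes in each library, with 1 point per library (triangles are DDX6 KO clone 2) and bars for the mean and SD. Rpl39l falls from a mean of 239.8 CPM in WT to 73.6 in DGCR8 KO and 45.4 in DDX6 KO, Rpl10l rises to 366 CPM in DDX6 KO, and Rpl9 is lowest in DGCR8 KO at 21.6 CPM.

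The P stalk is where elongation factors dock on the large subunit. The mRNAs of its 3 proteins were lower in both knockouts. Rplp0, the base of the stalk, was at 709, 765 and 780.3 CPM in WT, 547, 457 and 516 CPM in DGCR8 KO and 393, 483, 401 and 474 CPM in DDX6 KO (log2 fold change -0.57 ± 0.10 SE, adjusted p = 2.73e-04 and -0.79 ± 0.10 SE, adjusted p = 9.72e-06). Rplp1 was at 856 to 1025 CPM in WT, 512 to 633 CPM in DGCR8 KO and 459 to 579.6 CPM in DDX6 KO (-0.69 ± 0.11 SE, adjusted p = 1.12e-04 and -0.89 ± 0.11 SE, adjusted p = 6.91e-06). Rplp2 was at 309 to 365 CPM in WT, 219.6 to 281 CPM in DGCR8 KO and 167 to 223 CPM in DDX6 KO (-0.45 ± 0.13 SE, adjusted p = 0.00860 and -0.86 ± 0.12 SE, adjusted p = 2.97e-05). For each of the 3 both knockouts lay below WT without overlap. Of the end of Rplp1 66.9% is shared with other genes, so its assignment is uncertain.

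Among the small subunit genes Rps25 and Rpsa were lower in DDX6 KO. Rps25, needed by several viral internal ribosome entry sites, was at 417, 422 and 493 CPM in WT, 263, 284 and 366 CPM in DGCR8 KO and 227, 234, 226 and 220.0 CPM in DDX6 KO. The log2 fold change was -0.57 ± 0.12 (SE, adjusted p = 7.93e-04) in DGCR8 KO and -0.97 ± 0.11 (SE, adjusted p = 3.40e-06) in DDX6 KO, and all knockout libraries lay below WT. Rpsa, also known as the laminin receptor, was at 87.4, 94.7 and 99.2 CPM in WT, 88.2, 82.5 and 91.6 CPM in DGCR8 KO and 44.3, 52.5, 44.0 and 55.7 CPM in DDX6 KO. The WT and DGCR8 KO libraries overlapped (-0.11 ± 0.12 SE, adjusted p = 0.506), while the DDX6 KO libraries lay below both (against WT -0.94 ± 0.12 SE, adjusted p = 1.89e-05). In addition Rps3, a protein at the mRNA entry channel and the member with the highest counts, was at 2621, 2722 and 2837 CPM in WT, 2195, 1785 and 2241 CPM in DGCR8 KO and 1353, 1623, 1429 and 1436 CPM in DDX6 KO. It was lower in both knockouts without overlap (-0.41 ± 0.09 SE, adjusted p = 0.00205 and -0.91 ± 0.09 SE, adjusted p = 6.74e-07), and was named after its values were seen.

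In the large subunit, Rpl23a, Rpl29 and Rpl34 were lower in DDX6 KO and did not pass in DGCR8 KO (-0.50, -0.50 and -0.12, adjusted p = 0.0592, 0.0972 and 0.443). Rpl23a, at the tunnel exit, was at 45.1, 42.3 and 42.6 CPM in WT, 26.3, 32.2 and 33.8 CPM in DGCR8 KO and 13.6, 22.6, 13.4 and 27.4 CPM in DDX6 KO, and the DDX6 KO value (-1.20 ± 0.21 SE, adjusted p = 2.64e-04) rests on 13.4 to 27.4 CPM. Both knockouts lay below WT and overlapped each other. For Rpl29 the log2 fold change in DDX6 KO was -0.95 ± 0.23 (SE, adjusted p = 0.00343) and for Rpl34 -0.77 ± 0.11 (SE, adjusted p = 5.88e-05). Rpl36a (7.39 to 20.7 CPM over the libraries), Rpl21 (5.86 to 14.7 CPM) and Rpl10a (4.52 to 11.8 CPM) had few counts. Of the end of Rpl36a 100% is shared with other genes, of that of Rpl10a 87.3%, of that of Rpl23a 80.9%, of that of Rpl34 54.2% and of that of Rpl29 51.8%, so their assignment is uncertain. In the order Rpl36a, Rpl21 and Rpl10a, the log2 fold changes were -1.05 ± 0.27 (SE, adjusted p = 0.00484), -0.93 ± 0.28 (SE, adjusted p = 0.0139) and -0.83 ± 0.31 (SE, adjusted p = 0.0428) in DGCR8 KO, and -0.77, -0.84 and -0.89 in DDX6 KO (adjusted p = 0.0153, 0.0146 and 0.0212). With the replicate number as a block, the adjusted p in DDX6 KO became 0.0637, 0.0837 and 0.0653. Without WT replicate 3 the DDX6 KO calls were also lost (adjusted p = 0.114, 0.11 and 0.151), as were those of Rpl21 and Rpl10a in DGCR8 KO (0.0822 and 0.2). Leaving out other single libraries also ended calls: DGCR8 KO replicate 1 for Rpl21 in DGCR8 KO (0.0578), clone 2 replicate 1 for Rpl36a in DDX6 KO (0.0595), and, for Rpl10a, WT replicate 1, any DGCR8 KO replicate or clone 2 replicate 2 in DGCR8 KO (0.0502 to 0.102), and replicate 2 of either clone in DDX6 KO (0.0513 and 0.0539). The Rpl10a call in DGCR8 KO was also lost with DESeq2 (0.0643), with the 2 groups alone (0.072) and without the filter (0.0814). With DDX6 KO clone 1 or clone 2 alone, the DDX6 KO calls of Rpl10a (0.119 and 0.0883) and Rpl36a (0.0982 and 0.0546) were lost. That of Rpl21 was lost with clone 2 alone (0.136).

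Rpl5, Rpl11 and Rpl23, which bind Mdm2 when ribosome assembly fails, gave 1 call against WT. Rpl5 was at 14.9, 14.3 and 14.3 CPM in WT, 18.4, 17.6 and 21.2 CPM in DGCR8 KO and 10.6, 13.9, 14.4 and 15.1 CPM in DDX6 KO, above WT in all 3 DGCR8 KO libraries without passing the test (0.39 ± 0.20 SE, adjusted p = 0.148). Rpl11 held 9 to 32 counts per library and did not pass in any comparison, and Rpl23 was lower in DDX6 KO (-0.55 ± 0.11 SE, adjusted p = 0.00107) and did not pass in DGCR8 KO (-0.23 ± 0.12 SE, adjusted p = 0.134).

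Compared directly, DGCR8 KO was higher than DDX6 KO for 27 of the 80 tested members and lower for 5 (all genes, 23.0% higher and 21.0% lower), with a median log2 difference of 0.20. The count depended on scaling and on single libraries. With total counts, which moved the median of all genes from 0.00 to -0.13, 15 members (18.8%) were higher and 9 (11.2%) lower, against 17.4% and 27.5% of all genes (members' median 0.07). With the spike-ins none was higher and 3 (3.75%) were lower, against 4.33% and 9.04% of all genes (median -0.011, all genes -0.20). Relative to the median of all genes, the members lay at 0.20, 0.20 and 0.19 under the 3 scalings. Without DDX6 KO clone 1 replicate 1, 16 were higher (20.0%, against 20.5% of all genes), without clone 2 replicate 1, 17 (21.5%, against 20.5%), and with clone 2 alone, 14 (17.5%, against 16.6%). In these settings and with total counts, the share of members that were higher was thus near that of all genes. The members higher in DGCR8 KO included 12 of the small subunit, led by Rpsa (0.83 ± 0.13 SE, adjusted p = 3.78e-05), and 15 of the large subunit, led by Rpl39l, Rpl23a (0.69 ± 0.22 SE, adjusted p = 0.0159) and Rpl34 (0.65 ± 0.12 SE, adjusted p = 1.93e-04). The 5 that were lower in DGCR8 KO, all of the large subunit, were Rpl3l, Rpl10l, Rpl9, Rpl32 and Rpl7l1, the first 3 below -1 (all genes, 9.32%), and no member was above 1 (all genes, 7.77%). The call of Rpl23a was lost without DDX6 KO clone 1 replicate 1 (adjusted p = 0.0654) or clone 2 replicate 1 (0.0694), and that of Rpl32 without clone 2 replicate 2 (0.056). With clone 2 alone the call of Rpl23a was lost too (0.0911), as was that of Rpl32 with clone 1 alone (0.128). Among the 40 members at 100 CPM or more, 24 were higher and 3 (7.5%) lower in DGCR8 KO. Among the 2441 genes at that level 34.7% were higher and 19.9% lower.

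Chromosomes 6 and 8 carry 3 of the tested members, which are set apart because the other genes of these chromosomes moved as a group. On chromosome 6 the median log2 fold change of 560 tested non-member genes was 0.59 in DDX6 KO against WT, and 330 of them were higher and 26 lower. On chromosome 8 the median of 642 genes was -0.45 in DGCR8 KO against WT, and 286 were lower and 51 higher. The part of these shifts in the members' values was not tested. Rpl32 (chr6:115805505-115808747), a large subunit protein, was at 621, 562 and 653 CPM in WT, 488, 473 and 483 CPM in DGCR8 KO and 490.4, 669, 598 and 741 CPM in DDX6 KO. All DGCR8 KO libraries lay below WT, and DDX6 KO overlapped WT. Its log2 fold change was 0.02 ± 0.11 (SE, adjusted p = 0.923) in DDX6 KO, below the median of its chromosome and above the members' median. In DGCR8 KO it was lower (-0.35 ± 0.12 SE, adjusted p = 0.0334) beside a chromosome median of 0.07, with an adjusted p of 0.0591 to 0.125 when any of 5 libraries (WT replicate 1 or 3, or any DGCR8 KO library) was left out. Rpl13 (chr8:123102350-123105244) was at 448, 281 and 361 CPM in WT, 222, 179.5 and 223 CPM in DGCR8 KO and 159, 251, 200.2 and 277 CPM in DDX6 KO, with -0.78 ± 0.18 (SE, adjusted p = 0.00224) in DGCR8 KO and -0.70 ± 0.16 (SE, adjusted p = 0.00314) in DDX6 KO, where the chromosome median was -0.03. Of the end of Rpl13 83.3% is shared with other genes, so its assignment is uncertain. Leaving out the 3 members changed the counts from 33 to 31 lower in DGCR8 KO and from 55 to 54 in DDX6 KO.

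No member passed the threshold between the DDX6 KO clones in limma (all genes, 0.0428% lower in clone 2, and 0.041% of those at 100 CPM or more). At an unadjusted p under 0.05, 1 member passed, Rpl18 (1.25%, against 2.43% of all genes), and the median difference was 0.07. Against WT, clone 1 gave 46 lower members (median -0.63) and clone 2 gave 44 (median -0.56) in a fit with a group for each clone (all genes, 10.7% and 11.6%), with Rpl10l higher in each. The small number of libraries per clone limits this comparison.

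Genes that are made or controlled with the ribosomal proteins gave the following counts. Of all genes tested, 16.5% were lower and 19.9% higher in DGCR8 KO, and 16.6% were lower and 17.9% higher in DDX6 KO. Fau and Rpl36al encode ribosomal proteins under symbols that the rule leaves out, and Rack1 is a small subunit protein. Rack1 was at 2317, 2376 and 2663 CPM in WT, 2285, 2006 and 2242 CPM in DGCR8 KO and 1339, 1624, 1525 and 1613 CPM in DDX6 KO, lower in DDX6 KO (-0.69 ± 0.09 SE, adjusted p = 9.95e-06) and not past the threshold in DGCR8 KO (-0.18 ± 0.09 SE, adjusted p = 0.133). Of 4 such genes tested, Rack1 included, 1 was lower in DGCR8 KO and 2 in DDX6 KO, and Fau and Rpl36al did not pass. Of 18 other translation genes with TOP mRNAs, 7 (38.9%) were lower in DGCR8 KO (median -0.23) and 14 (77.8%) in DDX6 KO (median -0.63), and none was higher. They included Pabpc1, the poly(A)-binding protein, with -0.63 ± 0.10 (SE, adjusted p = 1.10e-04) and -0.88 ± 0.10 (SE, adjusted p = 2.59e-06), and Eef1d, an exchange factor of elongation, with -0.60 ± 0.15 (SE, adjusted p = 0.00379) and -0.64 ± 0.14 (SE, adjusted p = 0.00163). Btf3 was lower in DDX6 KO (-0.74 ± 0.23 SE, adjusted p = 0.0179).

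Of 54 genes of ribosome biogenesis (Npm1 stands in this list and in the one before), 17 (31.5%) were lower and 2 higher in DGCR8 KO (median -0.25), and 24 (44.4%) were lower and 1 higher in DDX6 KO (median -0.35). Nip7, of 60S assembly, was lower in DGCR8 KO (-1.16 ± 0.12 SE, adjusted p = 4.56e-07), as was the helicase Ddx21 (-0.70 ± 0.10 SE, adjusted p = 3.77e-05), while Tsr1 (0.37 ± 0.10 SE, adjusted p = 0.00608) and Rrp1 (0.44 ± 0.14 SE, adjusted p = 0.0215) were higher. In DDX6 KO, Utp3 (-1.08 ± 0.11 SE, adjusted p = 1.05e-06) and Imp3 (-0.87 ± 0.12 SE, adjusted p = 3.05e-05), both of the small subunit processome, were lower and Nob1, which trims 18S rRNA, was higher (0.32 ± 0.10 SE, adjusted p = 0.0210). Of 12 genes of the RNA polymerase I machinery, which makes rRNA, 2 (16.7%) were lower and 1 higher in DGCR8 KO, and 6 (50.0%) were lower and 1 higher in DDX6 KO. The lower share in DGCR8 KO was near that of all genes (16.5%). Taf1b was higher in DGCR8 KO (1.19 ± 0.14 SE, adjusted p = 2.77e-06), where Polr1d (-0.44 ± 0.14 SE, adjusted p = 0.0180) and Taf1d (-0.40 ± 0.11 SE, adjusted p = 0.00864) were lower. In DDX6 KO Polr1a, the largest subunit, was higher (0.62 ± 0.11 SE, adjusted p = 2.15e-04), and Taf1a (-0.86 ± 0.24 SE, adjusted p = 0.00955) and Polr1c (-0.48 ± 0.10 SE, adjusted p = 0.00180) were lower. Of 6 chaperones of ribosomal proteins, Tsr2, which carries Rps26, was lower in both (-0.85 ± 0.15 SE, adjusted p = 2.37e-04 and -0.78 ± 0.14 SE, adjusted p = 3.12e-04), and Heatr3, which imports Rpl5, was lower in DGCR8 KO (-0.62 ± 0.16 SE, adjusted p = 0.00616) and higher in DDX6 KO (0.38 ± 0.14 SE, adjusted p = 0.0403).

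Of 14 genes of mTOR signalling and TOP control, 4 were higher and 3 (21.4%) lower in DGCR8 KO, and 3 were higher and 2 (14.3%) lower in DDX6 KO. The lower shares were near those of all genes (16.5% and 16.6%), beside which 19.9% and 17.9% were higher. The translation inhibitors Eif4ebp1 (-1.29 ± 0.11 SE, adjusted p = 6.80e-08 and -0.41 ± 0.09 SE, adjusted p = 0.00266) and Eif4ebp2 (-0.58 ± 0.12 SE, adjusted p = 0.00100 and -0.77 ± 0.11 SE, adjusted p = 5.09e-05) were lower in both, and Rps6kb1, a kinase of Rps6, was higher in both (0.52 ± 0.14 SE, adjusted p = 0.00562 and 0.54 ± 0.13 SE, adjusted p = 0.00325). Larp1b (0.79 ± 0.15 SE, adjusted p = 4.22e-04) and the kinase Rps6kb2 (0.69 ± 0.22 SE, adjusted p = 0.0179) were higher in DGCR8 KO and Rheb, which activates mTOR, in DDX6 KO (0.57 ± 0.16 SE, adjusted p = 0.0116). Of 10 p53 targets, Rps27l included, 2 were higher and 5 (50.0%) lower in DGCR8 KO, and 5 (50.0%) were lower in DDX6 KO. Cdkn1a, an inhibitor of the cell cycle (0.94 ± 0.15 SE, adjusted p = 8.25e-05), and Sesn2 (0.46 ± 0.16 SE, adjusted p = 0.0284) were higher in DGCR8 KO, and Mdm2, which degrades p53, was lower (-0.92 ± 0.12 SE, adjusted p = 1.33e-05). Bbc3, which promotes cell death, was lower in DDX6 KO (-1.01 ± 0.18 SE, adjusted p = 3.65e-04), as was Zmat3 (-0.67 ± 0.12 SE, adjusted p = 3.59e-04).

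Mitochondrial ribosomal proteins form the separate ribosome of that organelle. Of 74 of their genes tested, 30 (40.5%) were lower and none higher in DGCR8 KO (median -0.32). In DDX6 KO 26 (35.1%) were lower and 1 higher (median -0.30). The lowest were Mrpl42 (-1.11 ± 0.15 SE, adjusted p = 1.55e-05) and Mrpl18 (-1.05 ± 0.14 SE, adjusted p = 1.65e-05) in DGCR8 KO, and Mrps24 (-1.40 ± 0.15 SE, adjusted p = 1.72e-06) and Mrps5 (-0.91 ± 0.11 SE, adjusted p = 6.01e-06) in DDX6 KO, where Mrps25 was higher (0.48 ± 0.13 SE, adjusted p = 0.00975). Of 34 ribosomal protein pseudogenes tested, 1 (2.94%) was lower in DGCR8 KO and 13 (38.2%) in DDX6 KO (median -0.28 and -0.72).

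**Figure D4:**
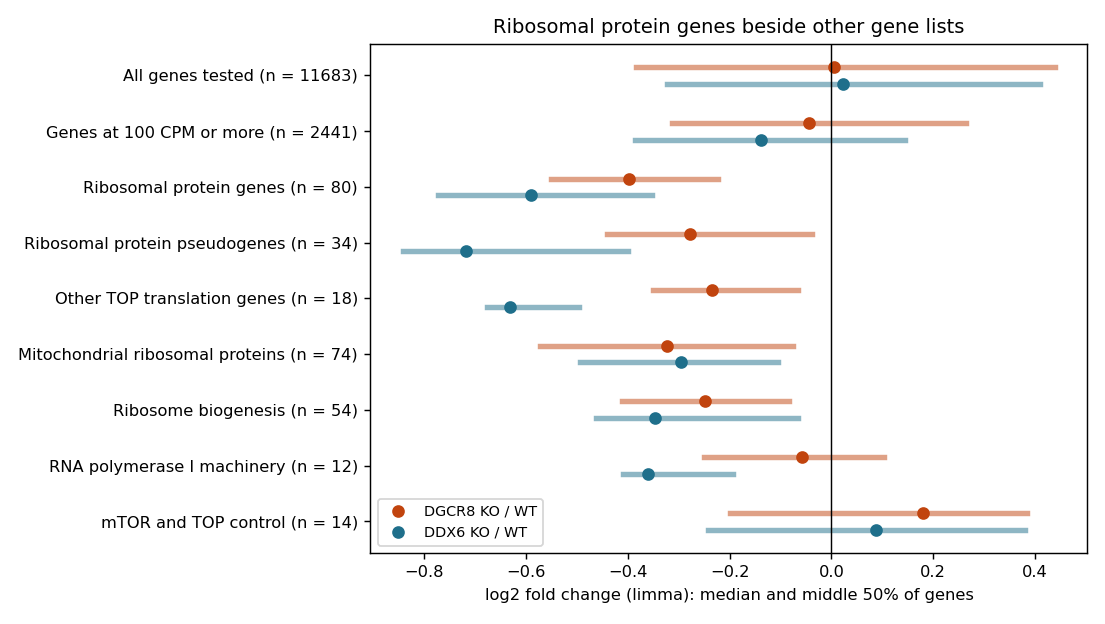
Log2 fold change against WT in both knockouts for the ribosomal protein genes, the lists described in the text and all genes, with points for the median and bars for the middle 50% of genes (number of tested genes beside each name). The ribosomal protein genes have medians of -0.40 and -0.59, and the other TOP translation genes -0.23 and -0.63.

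The 3′ ends of many members are shared with other genes. Only reads with 1 place in the genome were counted, and ribosomal protein genes have many processed pseudogenes. For 41 of the 83 members at least 50% of the 50-base stretches in the last 300 bases of the transcript were also found in another gene, and for 26 none was. Each gene was represented by 1 transcript, the annotation's principal one where given, with ties going to the longest coding sequence, then the longest 3′ UTR. Some of these 3′ UTRs are long (4728 bases for Rps15a), and reads from shorter transcripts would lie elsewhere. The shares hold for the chosen ends only. Rps6, Rpl24 and Rpl28 did not pass the filter, with 0 to 9 counts per library. The ends of Rps6 and Rpl24 were shared at 83.3% and 81.3%, and that of Rpl28 at 0%. The median WT level was 61.8 CPM over the 39 tested members with at least 50% shared and 168.8 CPM over the other 41, with ranges of 3.25 to 1246 CPM and 2.40 to 2727 CPM. These levels count 1 transcript end, were not scaled by length, and are not a measure of which protein is made most. Of the 41 members with less than 50% shared, 20 were lower in DGCR8 KO (median -0.39) and 28 in DDX6 KO (median -0.57), with 1 higher. Of the 39 others, 13 and 27 were lower (median -0.44 and -0.59). Of all genes tested, 16.5% and 16.6% were lower.

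**Figure D5:**
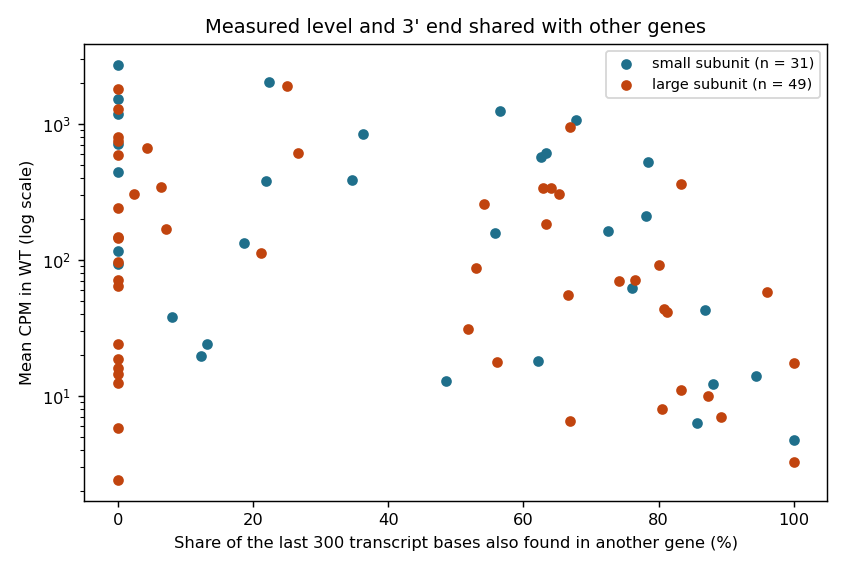
Share of the last 300 bases of the chosen transcript found in another gene (percent) against the mean WT level (CPM, log axis) of the 80 tested ribosomal protein genes, with 1 point per gene. Levels of the 39 genes with at least 50% shared have a median of 61.8 CPM, those of the other 41 a median of 168.8 CPM, and both ranges are wide.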

How the data were processed

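Expression was measured by QuantSeq in 10 libraries. The deposited counts are whole numbers of uniquely mapped sense-strand reads per gene. The authors trimmed reads (cutadapt 1.14), mapped them to mm10 (STAR 2.5.3a, 1 location only) and counted them with featureCounts 1.5.3, per the submitters' processing notes and the study's methods, on Gencode M14 without rRNA and with 92 ERCC spike-ins. Symbols and transcript ends came from Gencode M21 of the same build (51274 of 51467 genes paired). Libraries were grouped by title. A gene was tested if it reached 3 CPM in 3 or more libraries (11683 genes), with TMM scaling (edgeR 4.0.16) and voom weights in limma 3.58.1 (R 4.3.3), 1 model over all libraries with group as its only term. Tests were two-sided, with adjusted p-values by Benjamini-Hochberg over all genes tested. The script was tested on simulated data. Per-gene CPM values and their SD use TMM scaling, and summed shares use raw counts. Libraries of a group differed by more than counting noise (chi-square per degree of freedom 2.39 to 7.56). No molecular identifiers are stated, so floors cover counting error only.

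Same-numbered WT and DGCR8 KO libraries deviated together from their group means (r = 0.155, 0.281 and 0.303 over genes), so a fit with the replicate number as a block was an alternative. Members, gene lists and tests were chosen with earlier results of these data known. Members were named if past an adjusted p of 0.05 and a log2 fold change beyond 1 in any comparison, if among the 5 highest or 5 lowest called in one, if on chromosome 6 or 8, or if in the lists of copies, stalk and Mdm2-binding proteins. From other lists the 2 highest and 2 lowest called against WT were named. Alternatives were other scalings, tests (DESeq2 1.42.0 among them), filters and sets of libraries. The single values of a few genes that this rule names are not reported here.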

Additional observations from a re-analysis of the deposited data

Results flagged for a closer look

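Among 35 sets of the 4 DDX6 KO libraries examined (the named members and the summed shares), 1 had a library far from the others. Rpl21 was at 5.86, 6.26, 6.33 and 9.52 CPM, with the highest library, clone 2 replicate 2, separated from the next by 0.871 of the whole range. Chance flags about 1 in 20 such sets.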

How the results depend on the processing

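The members' medians against WT kept their sign under every alternative run, from -0.56 to -0.37 in DGCR8 KO and from -0.64 to -0.47 in DDX6 KO. Spike-in scaling gave -0.56 and 2 members (2.5%) lower in DGCR8 KO, and 1 (1.25%) lower in DDX6 KO. Of all genes, 4.16% and 1.84% were lower with that scaling. Between the knockouts spike-in scaling gave a median of -0.011, with 0 higher and 3 lower (all genes, 4.33% and 9.04%). Total counts gave 15 higher and 9 lower there (all genes, 17.4% and 27.5%). The cause was not tested. Leaving out 1 library at a time gave 24 to 36 lower in DGCR8 KO (all genes, 12.7% to 16.5%). It gave 0 to 1 higher there (all genes, 15.8% to 19.9%), the 1 appearing without DGCR8 KO replicate 2 or 3. In DDX6 KO 44 to 56 were lower (all genes, 11.9% to 17.8%). Between the knockouts 16 to 32 were higher (all genes, 18.7% to 23.3%) and 2 to 6 lower (all genes, 16.1% to 21.2%). The lowest count of 16 (20%) was near the share of all genes in that setting (20.5%). Between the knockouts, DDX6 KO clone 1 alone gave 2 lower (all genes, 16.9%) and clone 2 alone 14 higher (all genes, 16.6%). Without DDX6 KO clone 2 replicate 2, 2 were lower, and without DGCR8 KO replicate 1, 3 (all genes, 19.3% and 16.1%). Members with under 50% of the end shared were an alternative chosen after seeing the data and holding fewer genes. They gave 20 lower in DGCR8 KO, 28 in DDX6 KO and 15 higher between the knockouts (all genes, 16.5%, 16.6% and 23.0%). Adding pseudogenes moved the WT share to 2.86%. The replicate block gave 38 lower in DGCR8 KO and 52 in DDX6 KO (all genes, 18.9% and 16%). Between the knockouts it gave 32 higher and 5 lower (all genes, 24.2% and 21.5%). Beside Rpl36a, Rpl21 and Rpl10a in DDX6 KO it ended no other call of a named member. Replicate 1 libraries of the DDX6 KO clones also deviated together (r = 0.207). Single named members gave 1128 values under alternatives, taken only from comparisons they had passed in the main fit. These were thus picked for a clear sign and rechecked on mostly the same libraries. That none changed sign was therefore nearly fixed in advance and shows little. Of these values 126 no longer passed, 46 of them under spike-in scaling. Depth limits members with few counts, such as Rpl10, Rpl11, Rps27 and Rpl3l.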
